A study of Mus musculus with 16 samples.

Results

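The methyl-CpG readers described here are 7 genes, Mbd1, Mbd2, Mbd3, Mbd4, Zbtb33, Zbtb4 and Zbtb38, followed across mouse embryonic stem cells (mESCs) in which DNA methylation was wild type, absent or kept up by constitutive methyltransferase expression. Every non-control probe whose RefSeq identifier belongs to 1 of these genes was taken, which gave 13 probes out of 55681 non-control probes on the array. Of the 21154 genes that could be named, 13917 had a probe bright enough to be tested, and among them were 6 of the 7 readers, with 10 of their 13 probes. Total RNA was measured on 16 one-colour Agilent arrays, 1 array per sample. The wild-type line J1 is a male mESC line, and both other lines were derived from it. In the triple knockout TKO none of the methyltransferases Dnmt1, Dnmt3a and Dnmt3b is functional. 3B3l is a Dnmt3a and Dnmt3b double knockout in which Dnmt3b and its cofactor Dnmt3l were put back as constitutive transgenes. Each line was grown in serum with 500 U/ml LIF, or for 2 weeks in 2i with 1000 U/ml LIF, 1 µM of the MEK inhibitor PD0325901 and 3 µM of the GSK3 inhibitor CHIR99021. There were 4 arrays of J1-serum, 3 of J1-2i, 2 of TKO-serum, 3 of TKO-2i, 2 of 3B3l-serum and 2 of 3B3l-2i. TKO and 3B3l are each represented by a single line, so the line and its genotype cannot be told apart. Per the study's methods J1-serum cells were grown on inactivated SNLP feeder cells and the other lines were grown feeder free.

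Methyl-CpG readers are nuclear proteins that recognise methylated CpG dinucleotides and recruit corepressors to them. Mbd1, Mbd2 and Mbd4 bind methylated CpGs through a methyl-CpG-binding domain. Mammalian Mbd3 carries the same fold but has largely lost the preference for methylated DNA, and it takes the place of Mbd2 as an alternative subunit of the NuRD deacetylase and remodelling complex, which mESCs need for lineage commitment. Mbd4 is also a DNA glycosylase that repairs thymine mispaired with guanine at CpG sites. Zbtb33 (also called Kaiso), Zbtb4 and Zbtb38 are BTB-domain zinc finger proteins that bind methylated CpGs through their zinc fingers, and Kaiso also binds the unmethylated sequence TCCTGCNA.

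The promoters of Mbd3 and Zbtb33 are shown because these readers were called different between TKO and J1 in serum, and that of Zbtb4 because it was not well above background in TKO-serum. Mbd2 was called there as well, but Mbd1 and Mbd2 had no window among the promoters available. The sequences are the 250 bases upstream of the annotated start, from RefSeq on assembly GRCm38.p6, 5′ to 3′ on the strand of the gene, with each CpG in capitals. Mbd3 is at chr10:80399532-80399781 on the minus strand, Zbtb33 at chrX:38189543-38189792 on the plus strand and Zbtb4 at chr11:69765662-69765911 on the plus strand.
Mbd3: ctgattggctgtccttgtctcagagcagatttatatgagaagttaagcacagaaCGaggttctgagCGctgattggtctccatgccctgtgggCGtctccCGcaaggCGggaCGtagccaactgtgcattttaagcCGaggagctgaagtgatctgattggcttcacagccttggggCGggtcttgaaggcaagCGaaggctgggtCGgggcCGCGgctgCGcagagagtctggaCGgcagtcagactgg
Zbtb33: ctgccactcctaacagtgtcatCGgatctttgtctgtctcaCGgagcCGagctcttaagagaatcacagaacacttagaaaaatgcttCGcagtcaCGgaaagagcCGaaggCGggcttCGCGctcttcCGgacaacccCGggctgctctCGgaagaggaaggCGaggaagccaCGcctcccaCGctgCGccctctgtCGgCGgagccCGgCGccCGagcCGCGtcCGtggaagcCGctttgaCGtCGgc
Zbtb4: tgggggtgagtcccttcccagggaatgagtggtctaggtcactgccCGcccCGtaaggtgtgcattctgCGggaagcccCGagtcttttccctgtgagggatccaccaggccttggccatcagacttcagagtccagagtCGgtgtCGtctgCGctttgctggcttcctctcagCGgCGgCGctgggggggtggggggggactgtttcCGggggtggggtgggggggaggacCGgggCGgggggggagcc
The window of Zbtb33 held 27 CpGs, more than 91.4% of the 32851 windows of the same length in the table, where the median was 6. Mbd3 had 14 CpGs and Zbtb4 had 13, more than 70.6% and 68.5% of the windows. The Mbd4 window, chr6:115853342-115853591, held 22, and Zbtb38 had 3 windows on chromosome 9 with 6, 31 and 23. The letters CGCG, the pair of CpGs that Kaiso binds when methylated, were present in 5 of these 7 windows and in 33.8% of all windows. The letters TCCTGCNA, searched on both strands, were in none of the 7 and in 4.03% of all windows. These are counts of letters in a window, and the arrays did not measure methylation there.

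Levels are processed signals on the log2 scale, counted from the 75th percentile of their own array, so that 0 is that percentile and a difference of 1 is a doubling of signal. They compare the same probe between groups and not different probes with each other. Differences were tested with limma in 1 model of the 6 groups, and "called" means a Benjamini-Hochberg adjusted p of at most 0.05 over all 27126 probes tested. A group written as not well above background had no array on which the scanner software found the probe above its local background. The labels do not say whether replicate arrays came from separate cultures, so p-values measure the spread between these arrays, which may be technical. In bulk RNA of this kind, fewer cells of a type and less RNA per cell cannot be told apart.

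The probes of the DNA methyltransferase genes were read first as a check of the labels. Dnmt1 was at 1.79 ± 0.15 (SD, n = 4) in J1-serum and at -1.69 ± 0.04 (n = 2) in TKO-serum, and Dnmt3a was not well above background in any TKO or 3B3l group. Dnmt3b was at 2.95 in J1-serum, 5.52 in 3B3l-serum and 5.82 in 3B3l-2i. In TKO it was lower, at -0.36 in serum and -0.65 in 2i, but well above background on every array. Dnmt3l was at 5.84 in 3B3l-serum and 4.38 in 3B3l-2i, against 4.62 in J1-serum and 0.73 in J1-2i, and was saturated on 4 arrays. Where these probes lie relative to the deleted or added sequences was not analysed here. All 9 mESC markers, among them Pou5f1, Sox2 and Nanog, were well above background on every array. The summed level of 14 fibroblast markers, which feeder cells would bring, was 5.72 to 6.02 in J1-serum, 5.30 to 5.33 in 3B3l-serum and 3.75 to 3.81 in TKO-serum, against 1.48 to 2.17 across the 2i groups. The sum adds linear signals, so bright markers such as Tagln, at 3.80 in J1-serum and 4.38 in 3B3l-serum, weigh most. Not well above background on any array of the group were 0 of the 14 in J1-serum, 3 in 3B3l-serum, among them Dcn and Pdgfra, and 4 in TKO-serum. Every difference below from J1-serum, from serum to 2i or between TKO-serum and 3B3l-serum therefore goes with a difference in these markers. Their part in the results was not tested. All 3B3l arrays lay on slide 3, which was read on the second scan day and held 1 other array, J1-serum replicate 1. TKO and 3B3l shared no slide.

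The readers moved in different directions where methylation was absent. Of the 6 tested reader genes, Zbtb4 entered the test only because its J1 groups were bright enough, and it was well above background on 9 of the 16 arrays, so counts are given for the other 5 readers, which were above background on all arrays. The shares of all tested genes set beside these and later counts also include genes that were dim on some arrays. No share over genes above background on every array was counted. In serum, 3 of these 5 were called between TKO and J1, where 45.7% of all tested genes were called. Mbd3 and Zbtb33 were higher in TKO, and Mbd2 was lower. In 2i, 3 of 5 were again called between TKO and J1, against 26.2% of all genes, with Mbd3 higher and Mbd1 and Mbd2 lower. Genes are called here by their main probe, and a second Mbd1 probe was called higher in the same comparison. The median absolute difference over the 5 readers was 0.43 in serum and 0.44 in 2i, beside 0.42 and 0.26 over all genes tested. With a fold change of at least 2 added to the limma call, 0 of the 5 were left in either medium, where 16.5% and 7.36% of genes were left. An unadjusted p under 0.05 in limma was reached by 3 of the 5 in each medium, a share that was not counted over all genes. With Zbtb4 counted in, the calls were 4 of 6 in each medium, but only its bright J1 groups brought it into the test, which cannot be read.

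The shift from serum to 2i, which lowers methylation in J1 cells, was accompanied by a called difference in 1 of these 5 reader genes in J1, against 55% of all genes tested. In TKO cells, which lack the methyltransferases, 2 of 5 were called against 38.8%. In 3B3l cells 4 of 5 were called against 31.2%. The median log2 difference over the 5 was -0.20 in J1, -0.21 in TKO and -0.14 in 3B3l, beside 0.06, 0.08 and 0.01 over all genes. Between 3B3l and J1, 2 of 5 readers were called in serum, against 52.6% of genes, and 2 of 5 in 2i, against 43.7%. Between TKO and 3B3l, 3 of 5 were called in serum, against 32.8%, and 3 of 5 in 2i, against 32.7%. The 2i response itself differed in limma from that of J1 for 0 of 5 readers in TKO (30.3% of genes), where 0 had an unadjusted p under 0.05 either, and for 1 of 5 in 3B3l (31.8%). The share of all genes at an unadjusted p under 0.05 was not counted. The number of reader genes whose arrays did not overlap between groups was 3 of 5 in the J1 comparison of 2i with serum, where 62.7% of all genes did not overlap, and 3 of 5 between TKO-serum and J1-serum, where 57.5% did not. These shares rest on 5 genes. Comparisons that use J1-serum share its 4 arrays.

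**Figure D1:**
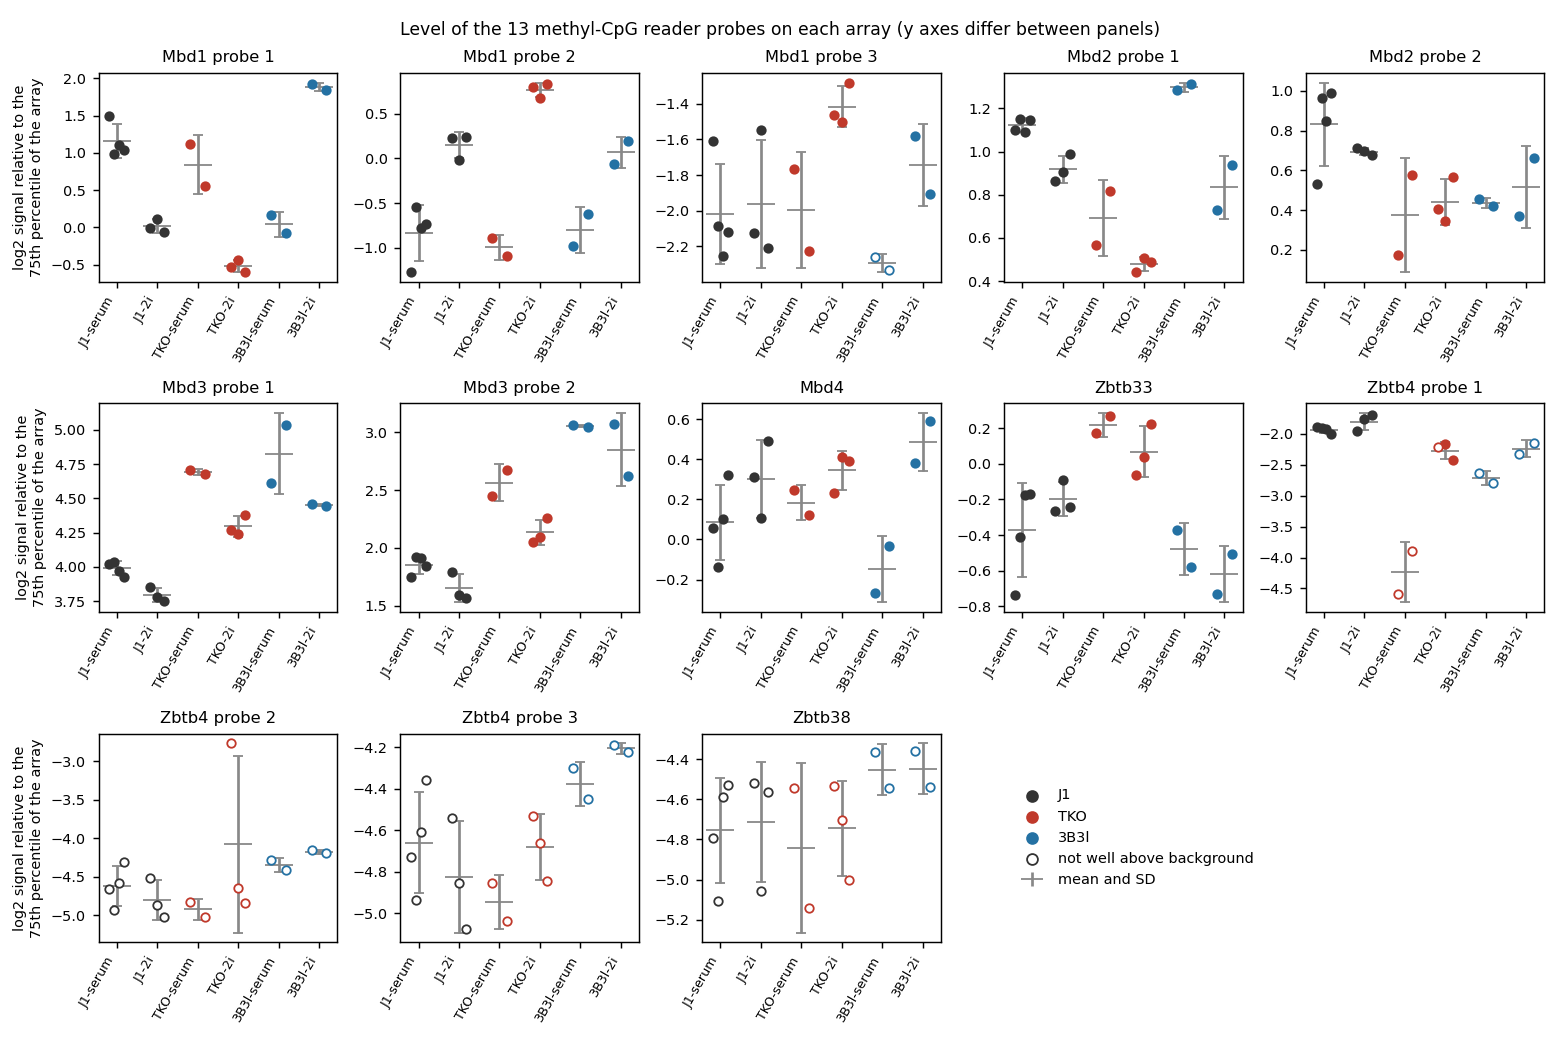
Level of each of the 13 reader probes on each of the 16 arrays. The y axis is the level (log2, counted from the 75th percentile), on a scale of its own in each panel, the x axis gives the 6 groups, points are arrays, open points are not well above background, and bars are the mean and SD. Both Mbd3 probes are higher on every TKO and 3B3l array than on any J1 array, Mbd1 probe 1 is highest in 3B3l-2i, and Zbtb4 probe 1 is at its lowest on the 2 TKO-serum arrays.

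Mbd3 was higher in both lines with altered methyltransferases than in J1, in both media and with both of its probes. Mbd3 probe 1 read 4.02, 4.04, 3.97 and 3.93 on the J1-serum arrays and 4.71 and 4.68 in TKO-serum. The 3B3l-serum arrays read 4.62 and 5.04. No TKO-serum or 3B3l-serum array overlapped with J1-serum. In 2i the same probe read 3.85, 3.78 and 3.75 in J1, 4.27, 4.24 and 4.38 in TKO, and 4.45 and 4.44 in 3B3l. All J1 arrays were again below all arrays of the other lines. The log2 difference of TKO from J1 was 0.70 ± 0.11 (SE, adjusted p = 0.000222) in serum, a 1.63-fold difference, and 0.50 ± 0.10 (adjusted p = 0.00382) in 2i. That of 3B3l from J1 was 0.84 ± 0.11 (adjusted p = 4.39e-05) in serum and 0.66 ± 0.12 (adjusted p = 0.000811) in 2i. With the slide as a block the last value was 0.61 and missed the threshold (adjusted p = 0.0553), and within slide 3 the serum value was 0.80 (adjusted p = 0.0879) against a single J1 array. Within slide 1, where TKO and J1 arrays lay together, the TKO difference was 0.74 in serum (adjusted p = 0.00305) and 0.51 in 2i.

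The second Mbd3 probe varied over the 16 arrays much as the first did (Pearson r = 0.90, a description over arrays of the same groups). It read 1.75, 1.92, 1.91 and 1.84 in J1-serum, 1.79, 1.59 and 1.57 in J1-2i, 2.45 and 2.68 in TKO-serum, and 2.05, 2.09 and 2.26 in TKO-2i. The 3B3l arrays were the highest, at 3.06 and 3.05 in serum and 3.07 and 2.62 in 2i. TKO differed from J1 by 0.71 ± 0.13 in serum and 0.48 ± 0.12 in 2i, and 3B3l differed by 1.20 in both media (SE 0.13 and 0.14, adjusted p = 1.05e-05 and 3.43e-05). On this probe, but not on the first, TKO was below 3B3l in both media, with log2 differences of -0.49 (adjusted p = 0.0298) and -0.72 (adjusted p = 0.00216). On the first probe these were -0.13 (95% interval -0.41 to 0.14) and -0.15 (-0.40 to 0.10). The serum value of the second probe was not called with the slide as a block, nor with quantile normalization, where it was -0.34.

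Going from serum to 2i, the differences in Mbd3 were small and their calls depended on the setting. On probe 1 the difference was -0.40 in TKO (adjusted p = 0.0179), -0.38 in 3B3l (adjusted p = 0.0457) and -0.20 in J1 (95% interval -0.40 to 0.01). The call in TKO was lost with 4 of the 5 TKO arrays left out in turn (adjusted p up to 0.0825). In 3B3l the value was -0.17 without 3B3l-serum replicate 2, the array at 5.04. The 3B3l call held in 8 of 27 alternative settings. It was lost with the slide as a block (adjusted p = 0.0614), with the replicate block (adjusted p = 0.0955), with array median scaling (-0.26, adjusted p = 0.251) and in 12 of the 16 fits that each left out 1 array. Probe 2 fell by 0.43 in TKO (adjusted p = 0.0310), or -0.41 with the slide as a block (adjusted p = 0.0545), and was not called in the other lines. The 2i response did not differ by test between TKO and J1 (difference -0.20, 95% interval -0.53 to 0.12) or between 3B3l and J1 (-0.18, -0.53 to 0.16). In order of group means probe 1 ran from J1-2i (3.79) through J1-serum, TKO-2i, 3B3l-2i and TKO-serum to 3B3l-serum (4.83), and of its neighbours J1-2i and J1-serum, TKO-2i and 3B3l-2i, and TKO-serum and 3B3l-serum did not pass the test. The other pairs of neighbours differ in both line and medium and were not compared.

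Mbd2, which replaces Mbd3 in the methyl-CpG-binding form of NuRD, differed in the opposite direction in TKO. Mbd2 probe 1 read 1.10, 1.15, 1.09 and 1.15 in J1-serum and 0.57 and 0.82 in TKO-serum. In 2i it read 0.86, 0.90 and 0.99 in J1 and 0.44, 0.51 and 0.49 in TKO. The TKO arrays were below all J1 arrays in the same medium. TKO minus J1 was -0.43 ± 0.09 (adjusted p = 0.00298) in serum and -0.44 ± 0.09 (adjusted p = 0.00353) in 2i, so that TKO had 0.743 and 0.737 of the J1 signal. Without TKO-serum replicate 1 the serum value was -0.30 (adjusted p = 0.0526), and within slide 1 the 2i value was -0.43 (adjusted p = 0.0532).

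Mbd2 in 3B3l was not lower than in J1 on this probe. The 3B3l arrays read 1.28 and 1.31 in serum, above all J1-serum arrays, and 0.73 and 0.94 in 2i. The differences from J1 were 0.18 (95% interval -0.03 to 0.38) and -0.08 (-0.30 to 0.13), neither of them called. TKO was below 3B3l in serum (log2 difference -0.61 ± 0.11, adjusted p = 0.0015) and in 2i (-0.36 ± 0.10, adjusted p = 0.0182), and the 2i value was not called with the slide as a block (adjusted p = 0.184). In 2i the probe fell by 0.46 in 3B3l (adjusted p = 0.00722), a value of -0.03 after normexp background correction. The J1 difference was -0.20 and that of TKO was -0.21, neither called, although the 2i arrays were below the serum arrays in both lines.

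The second Mbd2 probe was also lower in TKO in serum, but not by test in 2i. It read 0.53, 0.96, 0.85 and 0.99 in J1-serum and 0.17 and 0.58 in TKO-serum, which overlap. The 3B3l-serum arrays read 0.45 and 0.42. TKO differed from J1 by -0.46 ± 0.15 (adjusted p = 0.0278) in serum and by -0.26 ± 0.14 in 2i, which was not called. The serum value was -0.25 without TKO-serum replicate 1 (adjusted p = 0.324), and its call was also lost without J1-serum replicate 2, 3 or 4 and with array median scaling (adjusted p = 0.0564). Here 3B3l was also below J1 in serum (log2 difference -0.40, adjusted p = 0.0465), but the value was -0.10 with the slide as a block. The single J1-serum array on slide 3 was the lowest of the 4. In 2i this probe read 0.71, 0.70 and 0.68 in J1, 0.40, 0.35 and 0.57 in TKO and 0.37 and 0.66 in 3B3l. No 2i response was called on it. The correlation of the Mbd2 probes over the 16 arrays was 0.50.

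**Figure D2:**
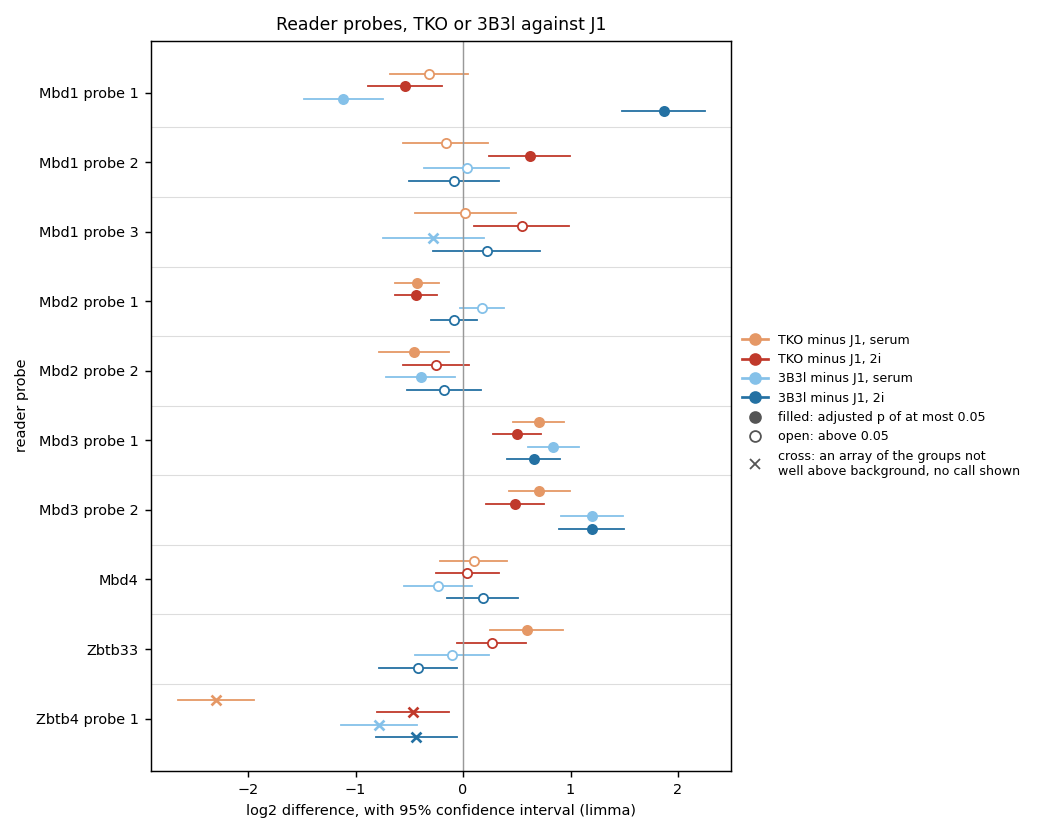
Differences of TKO and 3B3l from J1 in each medium for the 10 tested reader probes. The x axis is the log2 difference, lines are 95% confidence intervals from limma, filled points have an adjusted p of at most 0.05, open points do not, and crosses, without a call, are values for which an array of the groups was not well above background. Both Mbd3 probes lie right of 0 in all 4 comparisons, Mbd1 probe 1 lies at -1.11 in serum and 1.87 in 2i for 3B3l, and all values of Zbtb4 are crosses.

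Mbd1, a transcriptional repressor with a methyl-CpG-binding domain that works with the histone methyltransferase Setdb1, was called by its main probe in 9 of the 11 comparisons, more than any other reader, and its probes differed in direction. Mbd1 probe 1 is annotated to a predicted RefSeq transcript of the gene and probes 2 and 3 to a curated transcript. Which exons each probe covers was not analysed here. Over the 16 arrays probe 1 and probe 2 had a Pearson r of -0.53, and probe 2 and probe 3 had 0.56.

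Mbd1 probe 1 fell in 2i in J1 and TKO and rose in 3B3l. It read 1.50, 0.99, 1.10 and 1.04 in J1-serum and -0.01, 0.12 and -0.05 in J1-2i. In TKO it read 1.12 and 0.56 in serum and -0.53, -0.44 and -0.60 in 2i. In both lines every 2i array was below every serum array. In 3B3l it read 0.16 and -0.07 in serum and 1.92 and 1.84 in 2i, the highest values of the series. The 2i response was -1.14 ± 0.15 in J1 (adjusted p = 3.21e-05), -1.36 ± 0.18 in TKO (adjusted p = 6.13e-05) and 1.84 ± 0.19 in 3B3l (adjusted p = 1.45e-05). The response of 3B3l exceeded that of J1 by 2.98 ± 0.24 on the log2 scale (adjusted p = 2.33e-06), and that of TKO differed from J1 by -0.22 (95% interval -0.72 to 0.28).

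On probe 1 3B3l had the lowest mean of the 3 lines in serum and the highest in 2i. In serum 3B3l was below J1 (log2 difference -1.11 ± 0.17, adjusted p = 0.000142), and within slide 3 the difference from the 1 J1-serum array there was -1.46. In 2i 3B3l was above J1 by 1.87 ± 0.18 (adjusted p = 6.98e-06), or 1.41 with the slide as a block (adjusted p = 0.00398). TKO differed from J1 by -0.32 in serum (95% interval -0.68 to 0.05), or -0.60 and called without TKO-serum replicate 1 (adjusted p = 0.0268), and by -0.54 ± 0.16 in 2i (adjusted p = 0.0270). The 2i call was lost when any of the 6 arrays compared was left out (adjusted p between 0.0544 and 0.0894) and within slide 1, where the value was -0.48. TKO was above 3B3l in serum by 0.80 (adjusted p = 0.00906) and below it in 2i (-2.40 ± 0.18, adjusted p = 9.41e-07). The serum value was not called without TKO-serum replicate 1 (0.52) or without 3B3l-serum replicate 2 (0.68).

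Mbd1 probe 2 instead rose in 2i in all 3 lines. It read -1.28, -0.54, -0.78 and -0.74 in J1-serum against 0.24, -0.02 and 0.24 in J1-2i. The TKO arrays read -0.90 and -1.10 in serum and 0.80, 0.68 and 0.83 in 2i. The 3B3l arrays read -0.98 and -0.62 in serum and -0.06 and 0.19 in 2i. In each line all 2i arrays were above all serum arrays. The 2i response was 0.99 ± 0.16 in J1 (adjusted p = 0.000228), 1.77 ± 0.19 in TKO (adjusted p = 1.35e-05) and 0.87 ± 0.21 in 3B3l (adjusted p = 0.00856), and the 3B3l call was lost without 3B3l-serum replicate 1 (0.69) or 3B3l-2i replicate 2 (0.74). The response of TKO exceeded that of J1 by 0.78 ± 0.25 (adjusted p = 0.0377), a call that held in 10 of 26 alternative settings. It was lost with array median scaling (adjusted p = 0.122), quantile normalization (adjusted p = 0.0515), the replicate block (adjusted p = 0.105), no filter on dim probes (adjusted p = 0.0753) and in 11 of the 16 single-array omissions.

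In serum the lines did not differ by test on Mbd1 probe 2, with TKO at -0.16 (95% interval -0.56 to 0.24) and 3B3l at 0.03 (-0.36 to 0.43) from J1. In 2i TKO was above J1 by 0.62 ± 0.17 (adjusted p = 0.0211) and above 3B3l by 0.70 ± 0.19 (adjusted p = 0.0162), the latter at 0.11 in a fit blocked by slide. The TKO difference from J1 in 2i was not called without J1-2i replicate 2 (adjusted p = 0.0808), without TKO-2i replicate 3 (adjusted p = 0.0706) or with array median scaling (adjusted p = 0.0773). Mbd1 probe 3 lay between -2.33 and -1.28, was well above background on 14 of 16 arrays and was called in none of the 11 comparisons. Its 2i response in TKO was 0.58 (95% interval 0.08 to 1.08, adjusted p = 0.0724) and in J1 0.06 (-0.36 to 0.47). Of the Mbd1 probes, then, the gene-level fall in J1 and TKO in 2i rests on probe 1, and a mean over the tested probes of Mbd1 was not called in J1 and was called higher in TKO (0.33, adjusted p = 0.0330).

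**Figure D3:**
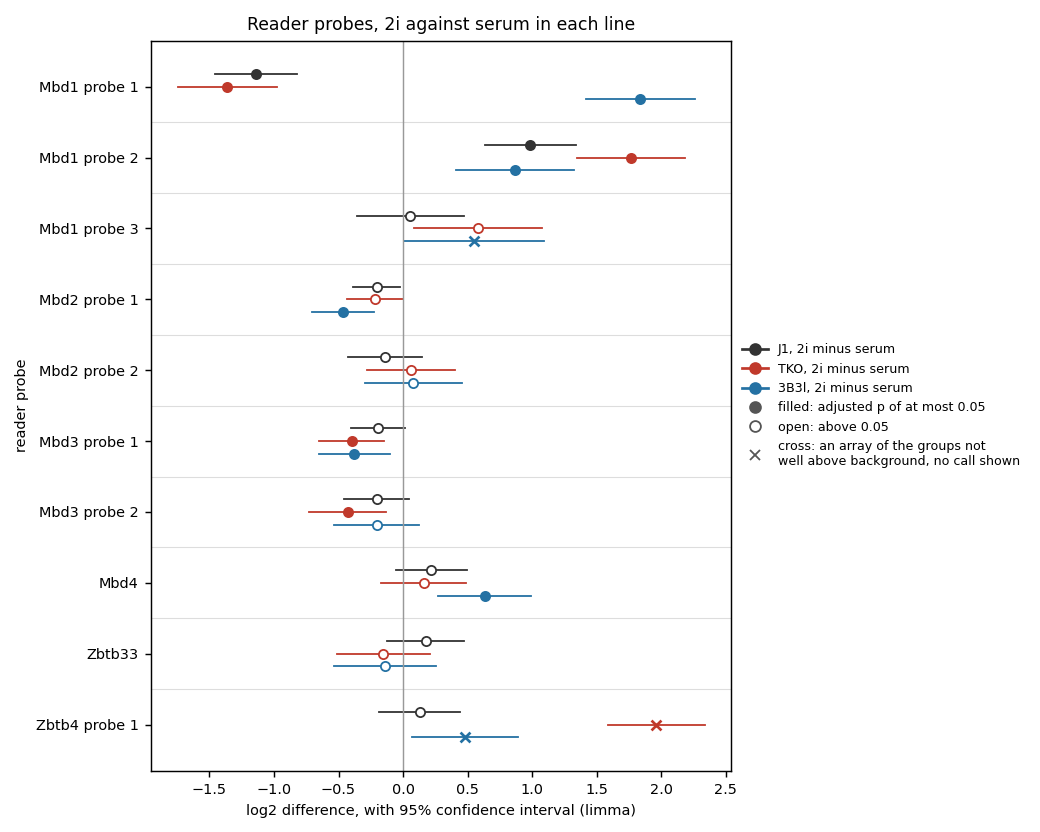
The 2i response, 2i minus serum, of the 10 tested reader probes in J1, TKO and 3B3l. The x axis is the log2 difference, lines are 95% confidence intervals from limma, filled points have an adjusted p of at most 0.05, and crosses, without a call, are values for which an array of the groups was not well above background. Mbd1 probe 1 lies at -1.14, -1.36 and 1.84 in the 3 lines, Mbd1 probe 2 lies right of 0 in each of them, and Zbtb4 probe 1 lies at 1.96 in TKO, where the serum group was not well above background.

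Mbd4, the glycosylase of the family, stayed between -0.27 and 0.59 over the 16 arrays. It read 0.06, -0.14, 0.10 and 0.32 in J1-serum, 0.31, 0.11 and 0.49 in J1-2i, 0.25 and 0.12 in TKO-serum, and 0.23, 0.41 and 0.39 in TKO-2i. These groups overlap. The 3B3l arrays read -0.27 and -0.03 in serum and 0.38 and 0.59 in 2i. Its 2i response in 3B3l was 0.63 ± 0.17 (adjusted p = 0.0132), the only call of this gene in the 11 comparisons, and it was lost without 3B3l-serum replicate 1 or 3B3l-2i replicate 2. The response in J1 was 0.22 (95% interval -0.06 to 0.49) and in TKO 0.16 (-0.17 to 0.49). The response in 3B3l did not differ from that in J1 by test (0.42, 95% interval -0.04 to 0.87). TKO minus J1 was 0.10 in serum (-0.22 to 0.41) and 0.04 in 2i (-0.25 to 0.34).

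Zbtb33 was higher in TKO than in J1 in serum. It read -0.74, -0.41, -0.17 and -0.17 in J1-serum and 0.17 and 0.27 in TKO-serum, without overlap. In 2i it read -0.26, -0.09 and -0.24 in J1 and -0.06, 0.04 and 0.22 in TKO. The 3B3l arrays were the lower ones in 2i, at -0.73 and -0.51, and read -0.37 and -0.58 in serum. TKO minus J1 was 0.59 ± 0.16 (adjusted p = 0.00935) in serum, or 0.39 within slide 1 (adjusted p = 0.0365), and 0.27 (95% interval -0.06 to 0.59) in 2i. The serum call was lost without TKO-serum replicate 2 (0.54, adjusted p = 0.0655). TKO was above 3B3l by 0.70 in serum (adjusted p = 0.0131) and 0.69 in 2i (adjusted p = 0.00832), and with the slide as a block these were 0.18 and 0.20 and not called. The array of J1-serum on slide 3, at -0.74, was also the lowest of its group. No line had a called 2i response, with values of 0.17 in J1, -0.15 in TKO and -0.14 in 3B3l.

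Zbtb4 had its lowest signal in TKO-serum, and only 1 of its 3 probes could be tested. Zbtb4 probe 1 read -1.90, -1.91, -1.93 and -2.0 in J1-serum and -1.97, -1.76 and -1.69 in J1-2i. In TKO-serum it read -4.58 and -3.89, and neither array was well above background. In TKO-2i it read -2.22, -2.16 and -2.43, of which the first was not well above background. The 3B3l arrays read -2.64 and -2.80 in serum and -2.33 and -2.15 in 2i, none of them well above background. The measured log2 differences on the processed signal were -2.30 between TKO-serum and J1-serum and 1.96 between TKO-2i and TKO-serum. After normexp background correction they were -1.35 and 1.12. These sizes are neither measured folds nor lower limits, because this probe read up to -2.15 in 3B3l-2i without being well above background. This probe entered the test only through J1-serum and J1-2i, the groups with all arrays well above background, so that a lower signal elsewhere was in part set by that choice and no p is given for its differences between lines, and it was not tested where all 16 arrays had to be above background. In J1 the 2i response was 0.13 (95% interval -0.18 to 0.44). The measured response of TKO was 1.83 above that of J1, a value that rests on a TKO-serum signal not well above background.

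Zbtb4 also read lower in 3B3l-serum, where no array was well above background, than in J1-serum. The measured log2 difference was -0.78, and it was -0.82 within slide 3, against a single J1 array, and -0.37 after normexp background correction. In 2i the measured log2 difference of TKO from J1 was -0.47, and -0.31 after normexp background correction. For 3B3l in 2i, where no array was well above background, the measured log2 difference from J1 was -0.43, and -0.29 after normexp. The other Zbtb4 probes were not well above background on any of the 16 arrays. Probe 3 read between -5.08 and -4.19, and probe 2 between -5.01 and -4.15 except on TKO-2i replicate 1, where it read -2.76. Zbtb38, a repressor of the same zinc finger family, had a single probe that was not well above background on any array and read between -5.14 and -4.36. No difference in Zbtb38 could be measured at this signal.

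Mbd2 and Mbd3 act within NuRD, so the other subunits of that complex were followed as well. All 13 listed subunits were tested, but Chd5 and Gatad2b were not well above background on every array and entered through the groups where they were bright, so the counts are over the other 11. Between 3B3l and J1, 7 of 11 were called higher and 0 lower in serum, and 6 higher and 0 lower in 2i, where 31% and 25.5% of all genes were called higher and 21.5% and 18.1% lower. The median difference of the 11 was 0.55 and 0.42, beside 0.14 and 0.10 over all genes. Hdac1, the deacetylase of the complex, was at 5.85 ± 0.03 (SD, n = 2) in 3B3l-serum and 4.42 ± 0.27 (n = 4) in J1-serum, a log2 difference of 1.43 (adjusted p = 9.92e-06). In 2i the difference of Cdk2ap1 was 1.16 (adjusted p = 0.00042), and it was saturated on 1 array. Gatad2b, a linker between the deacetylase and remodelling parts, read -1.03 ± 0.51 (n = 2) in 3B3l-2i and -2.47 ± 0.65 (n = 3) in J1-2i, where 1 of the 3 arrays was well above background, and no p is given for it.

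Between TKO and J1, fewer subunits were called, and whether the counts differ from those of 3B3l was not tested. In serum 1 of the 11 was called higher and 1 lower, and in 2i 2 higher and 0 lower, where 22.6% and 13% of all genes were called higher and 23.1% and 13.3% lower. Hdac1 was higher by 0.50 in TKO-serum (adjusted p = 0.0228). Chd5, an alternative remodelling ATPase, read -2.58 ± 0.01 (n = 2, above background on 1 array) in TKO-serum and -1.22 ± 0.22 (n = 4) in J1-serum. It was tested only because all J1-serum arrays were well above background, which favours lower values elsewhere, and no p is given for it. In 3B3l-serum it read -2.76 ± 0.03 (n = 2) and in J1-2i -3.22 ± 0.37 (n = 3), with no array well above background in either group. Directly between TKO and 3B3l, 0 of the 11 subunits were called higher in TKO and 4 lower in serum, and 0 higher and 2 lower in 2i, where limma called 20.9% and 18.9% of all genes lower and 11.9% and 13.8% higher. With 2i, 2 of the 11 rose and 2 fell in J1, 3 rose and 1 fell in TKO, and 0 rose and 2 fell in 3B3l. Of all genes 30.3% rose and 24.7% fell in J1, 21.2% and 17.6% in TKO, and 16.1% and 15.1% in 3B3l. Hdac2 rose by 1.05 in J1 (adjusted p = 0.000338) and by 0.63 in TKO (adjusted p = 0.0391), and in 3B3l Chd3 fell by 1.12 (adjusted p = 0.000155) and Mta3 fell by 0.94 (adjusted p = 0.00273).

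The 11 listed partners of Mbd1, Mbd4, Zbtb33 and Zbtb38 were all tested. Between 3B3l and J1 in serum 7 of 11 were called higher and 0 lower, and between TKO and J1 in serum 5 higher and 0 lower, where limma called 31% and 22.6% of all genes higher and 21.5% and 23.1% lower. In 2i these counts were 2 higher and 1 lower for 3B3l (25.5% and 18.1% of genes) and 1 higher and 0 lower for TKO (13% and 13.3%). Setdb1, the H3K9 methyltransferase that works with Mbd1, was at 0.95 ± 0.07 (SD, n = 4) in J1-serum, 1.60 ± 0.27 (n = 2) in TKO-serum and 2.08 ± 0.04 (n = 2) in 3B3l-serum. It was higher than in J1 by 0.64 in TKO (adjusted p = 0.000625) and by 1.12 in 3B3l (adjusted p = 5.5e-06). From serum to 2i 6 partners rose and 0 fell in J1, 3 rose and 2 fell in TKO, and 1 rose and 1 fell in 3B3l, beside 30.3% and 24.7%, 21.2% and 17.6%, and 16.1% and 15.1% of all genes. Tbl1xr1, a subunit of the NCoR corepressor complex that Kaiso recruits, rose by 1.40 in J1 (adjusted p = 3.23e-07) and by 0.82 in TKO (adjusted p = 0.000314), and in 3B3l it fell by 0.59 (adjusted p = 0.00819). Ctnnd1 (p120 catenin), the binding partner of Kaiso, was higher in 3B3l than in J1 by 1.02 in serum (adjusted p = 0.00459) and 1.36 in 2i (adjusted p = 0.00147).

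Of 9 other genes with an MBD-like or SRA domain, 6 were tested, and the 5 without Mbd3l1 were well above background on all arrays. From serum to 2i 4 of the 5 rose and 1 fell in J1, 4 rose and 0 fell in TKO, and 2 rose and 0 fell in 3B3l, with median differences of 0.65, 0.52 and 0.37 beside 0.06, 0.08 and 0.01 over all genes. Higher calls made up 30.3%, 21.2% and 16.1% of all genes in these comparisons. Baz2b, a bromodomain protein, rose by 2.38 in J1 (adjusted p = 9.52e-08), 1.77 in TKO (adjusted p = 1.49e-05) and 1.22 in 3B3l (adjusted p = 0.000925). Uhrf1, which binds hemimethylated CpGs and brings Dnmt1 to replicated DNA, rose by 1.18 in J1 (adjusted p = 7.8e-07), 1.10 in TKO (adjusted p = 1.57e-05) and 0.64 in 3B3l (adjusted p = 0.00322). Uhrf1 did not differ by test between TKO and J1 in serum (0.21) or in 2i (0.12).

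**Figure D4:**
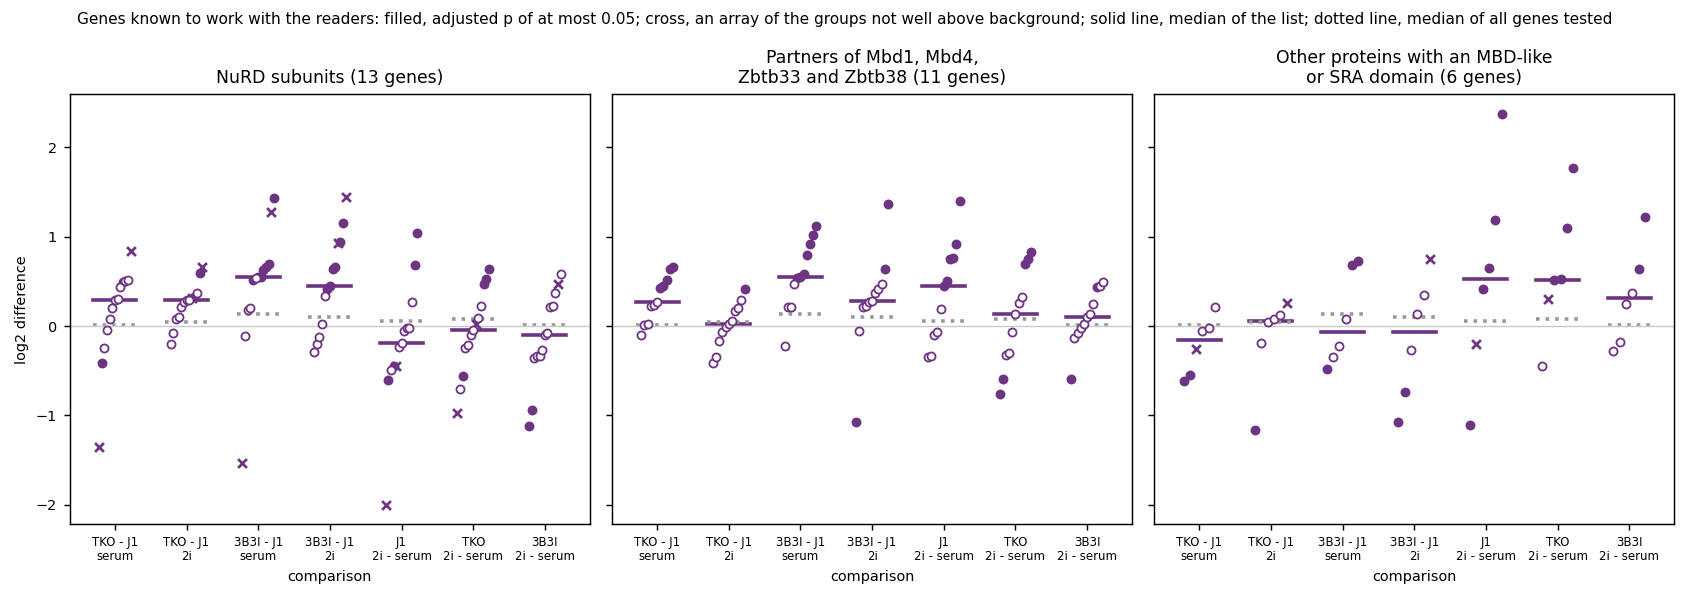
Log2 differences of the tested genes of 3 lists, the NuRD subunits, the partners of the other readers and other genes with an MBD-like or SRA domain, in 7 comparisons. Points are genes, filled where the adjusted p is at most 0.05 and crosses where an array of the groups was not well above background, the solid line is the median of all tested genes of the list and the dotted line the median of all genes tested. The median of all 13 NuRD subunits lies at 0.55 in serum and 0.45 in 2i between 3B3l and J1.

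The genes whose levels followed each reader most closely over the 16 arrays were named by Pearson r among 13627 genes, as a description, since arrays of a group are alike. For Mbd3 they were Dohh (r = 0.969) and Puf60 (0.957), and for Mbd2 Mdfi (0.967) and Klhdc2 (0.946). Mbd1 probe 1 was followed by Gm7104 (0.970) and Zscan4a (0.962). For Zbtb4 they were Klhl25 and Cyp2s1 (0.955 each), for Zbtb33 Olfr307 (0.910) and 2210408I21Rik (0.906), and for Mbd4 Wdr44 (0.873) and Usp37 (0.860). Among the readers themselves r ranged from -0.73 between Mbd3 and Zbtb4 to 0.30 between Mbd1 and Mbd2. Zbtb4 was well above background on 9 of the 16 arrays, so its correlations, also those with Klhl25 and Cyp2s1, rest in part on dim signal. Without Zbtb4 the lowest r was -0.59, between Mbd2 and Zbtb33.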

How the data were processed

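The deposited scanner files hold 1-colour intensity values made by the authors with Agilent Feature Extraction 11.5.1.1, per the submitters' processing notes. The deposited table of log2 values holds the authors' normalized signal, and 13 of its 16 columns matched best another replicate of the same group, so it served only as an alternative. Control spots and outlier spots were left out, spots of a probe averaged, and log2 of the processed signal taken minus the 75th percentile of the array (intensity 1019 to 1835). A probe was tested if well above background on all arrays of at least 1 group, which held for 27126 probes. On each array 39.7% to 49.0% of spots were well above background, and the number of arrays limits the precision. Differences came from limma 3.58.1 in R 4.3.3 (6-group means model, Benjamini-Hochberg adjustment), tested on simulated data. A gene was called by its tested probe with the highest mean. Named were all reader probes, the 2 genes most like each, and from each list at most the 2 largest called differences per comparison, except that genes so named are also followed in other comparisons. No bound on a fold was set where a group was not well above background. Probes were matched to RefSeq genes by accession. The members and lists were chosen with earlier results of these data known. Alternatives were other scalings, normexp, filters, blocks, single slides and left-out arrays.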

Additional observations from a re-analysis of the deposited data

Results flagged for a closer look

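The interaction term in limma called a different 2i response between lines on Mbd1 probes 1 and 2, and on Zbtb4 probe 1, whose test cannot be read. For Mbd1 probe 1 the response of 3B3l exceeded that of J1 by 2.98 on the log2 scale. For Zbtb4 probe 1 the measured response of TKO was 1.83 above that of J1, but TKO-serum was not well above background and the probe entered the test only through the J1 groups, so neither the size nor its test can be read. For Mbd1 probe 2 the response of TKO exceeded that of J1 by 0.78, a call that held in 10 of 26 alternative settings.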

How the results depend on the processing

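No called difference of a single probe turned its direction under any alternative. The mean over the 3 Mbd1 probes did, at 0.33 in TKO from serum to 2i (called) and 0.21 between TKO-2i and J1-2i (not called), where its main probe was called lower. Counts of reader genes below are over the 6 tested genes, Zbtb4 included, although its test cannot be read. As reported, Zbtb4 is among the calls for TKO-2i against TKO-serum, TKO-serum against J1-serum and TKO-2i against J1-2i. It is also among those for 3B3l-serum against J1-serum, TKO-serum against 3B3l-serum and the 2i response of TKO against J1. The share of all genes called was not counted for each alternative setting, so these counts do not set the readers apart from other genes. Of 45 called probe comparisons out of 110, 12 kept their call in every setting, and of the uncalled ones 53 were called in none. The number of reader genes called between J1-2i and J1-serum was 1, and 2 with quantile normalization or with the authors' table, 3 with an unmoderated test, 0 with the mean over the probes of a gene, and 1 to 2 with 1 array left out. For 3B3l-2i against 3B3l-serum it was 4, and 0 unmoderated, 2 with the probe mean, 1 with a 2-fold criterion, 1 within slide 3, and 2 to 5 with 1 array left out. For TKO-2i against TKO-serum it was 3, and 2 with either filter alternative, the replicate block or the 2-fold criterion, and 2 to 3 with 1 array left out; the call of Mbd3 probe 1 there held in 20 of 27 settings. For TKO-serum against J1-serum it was 4, and 1 with the 2-fold criterion. For TKO-2i against J1-2i it was 4, and 2 with no filter on dim probes, 0 with the 2-fold criterion, 1 within slide 1, and 2 to 4 with 1 array left out, where each of J1-2i replicates 2 and 3 and the 3 TKO-2i arrays gave 2. For 3B3l-serum against J1-serum it was 3, and 1 with the 2-fold criterion or within slide 3. For 3B3l-2i against J1-2i it was 2, and 1 with the slide as a block, 4 with the probe mean and 1 with the 2-fold criterion. For TKO-serum against 3B3l-serum it was 4, and 0 unmoderated, 1 with the 2-fold criterion, and 2 to 4 with 1 array left out, with 2 without 3B3l-serum replicate 2. For TKO-2i against 3B3l-2i it was 3, and 1 with the slide as a block, unmoderated or with the 2-fold criterion. The 2i response of TKO against J1 gave 1, and 2 with the authors' table and 0 with the filter on all 16 arrays, which left Zbtb4 untested. That of 3B3l gave 1, and 0 with the authors' table, which lacks Mbd1 probe 1. Other causes were not tested. Replicate numbers were not used to pair the arrays. Correlations of deviations ran from -0.27 to 0.29, the latter between 3B3l-serum and 3B3l-2i, over 33 same-numbered pairs, 6 over 0.1. Between groups of 2 arrays each, both numbers give the same value by construction, so the pairs are not separate and this check does not settle pairing. With the replicate block 8 calls were lost, among them Mbd3 probe 1 in TKO from serum to 2i (-0.40, adjusted p = 0.0526 in limma). Single-slide fits and the counts without genes that were dim on some arrays were chosen after seeing the data. The median of all probes shifted by 0.16 between 3B3l-serum and J1-serum, and by 0.18 between J1-2i and J1-serum under array median scaling. Dim probes limit Zbtb4 and Zbtb38.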
